A study of Mus musculus with 28 samples.

Results

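The 8 genes described here serve transmitter uptake, potassium and water transport and gap junction coupling in astrocytes, and were followed in sorted mouse brain cells: Slc1a2, Slc1a3, Slc6a11, Glul, Kcnj10, Aqp4, Gja1 and Gjb6. They were chosen by name from a count table of 40481 mouse genes, and each of the 8 matched 1 row. The levels in the astrocyte sort came first, and the microglia sort of the same mice served for comparison.

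All mice carried a floxed human APOE4 allele (APOE4fl/fl). The amyloid-free groups were APOE4fl/fl (Cre-negative, 2 mice) and APOE4fl/fl::ALDH1L1-CreERT (Cre-positive, 2 mice). The amyloid groups added the APPPS1 transgenes: APPPS1::APOE4fl/fl (Cre-negative, 5 mice) and APPPS1::APOE4fl/fl::ALDH1L1-CreERT (Cre-positive, 5 mice as labelled, 4 used). Every mouse, Cre-negative controls included, received 2 intraperitoneal doses of tamoxifen at 100 mg/kg at an age of 3.8 months, and the cells were sorted 10 days later from cortex, hippocampus and thalamus. Microglia were gated with an antibody to Cd11b and astrocytes with an antibody to ACSA-2, and RNA of each sort was sequenced. The Cre is driven by ALDH1L1, an astrocyte gene, and is of a form that tamoxifen activates. No mouse was sampled before the doses, so the state of the floxed APOE4 until then was not measured. The series text gives 4 mice for each APPPS1 group where the sample labels give 5.

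Glutamate released at synapses is taken up mainly by astrocytes through 2 sodium-driven transporters, GLT-1 (Slc1a2) and GLAST (Slc1a3), and is turned into glutamine by glutamine synthetase (Glul). GABA is cleared in part through GAT-3 (Slc6a11). The inward rectifier Kir4.1 (Kcnj10) carries potassium into the cell, aquaporin-4 (Aqp4) passes water at the endfeet that wrap blood vessels, and connexin 43 (Gja1) and connexin 30 (Gjb6) form the gap junctions that join astrocytes into a network.

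On GRCm38, Slc1a2 lies at chr2:102658659-102790784 on the plus strand and Slc1a3 at chr15:8634124-8710764 on the minus strand. Slc6a11 lies at chr6:114131241-114249952 (plus) and Glul at chr1:153899944-153909723 (plus). Kcnj10 lies at chr1:172341210-172374085 (plus). Gja1 lies at chr10:56377330-56402513 (plus) and Gjb6 at chr14:57123303-57133611 (minus). Slc1a2 shares 189 exon bases with Gm13872 on the other strand, which had at most 3441 counts in an astrocyte library against 169103 or more for Slc1a2. Glul shares 116 exon bases with Teddm2, which had at most 368 counts.

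The 250 bases before the RefSeq start (GRCm38.p6) are shown for the paired glutamate transporters, Slc1a2 and Slc1a3, because their ratio is compared across groups later. Slc1a2 is chr2:102706188-102706437 (plus) and Slc1a3 is chr15:8710808-8711057 (minus). The RefSeq start of Slc1a2 lies inside the gene model used for counting. Capitals mark matches, on either strand, to an NFI half-site (TTGGC), a SOX core (ACAAT) or a TATA box (TATAAA).
Slc1a2: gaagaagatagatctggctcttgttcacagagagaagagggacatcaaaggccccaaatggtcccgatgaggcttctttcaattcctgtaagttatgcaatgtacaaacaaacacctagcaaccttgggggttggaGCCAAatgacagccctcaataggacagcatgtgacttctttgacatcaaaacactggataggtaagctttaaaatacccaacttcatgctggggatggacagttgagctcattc
Slc1a3: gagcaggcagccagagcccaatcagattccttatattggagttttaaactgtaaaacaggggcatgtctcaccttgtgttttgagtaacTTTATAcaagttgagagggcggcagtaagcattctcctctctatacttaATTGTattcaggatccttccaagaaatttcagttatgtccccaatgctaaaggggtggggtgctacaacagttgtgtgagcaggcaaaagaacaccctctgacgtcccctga
The Slc1a2 window held 1 NFI match and no SOX or TATA match, and the Slc1a3 window held 1 SOX and 1 TATA match and no NFI match. Such letters are common: 41.5% of 32851 RefSeq windows of this length held the NFI half-site, 27.7% the SOX core and 12.4% the TATA box. A match is a description of these letters and not of binding. Of the 8 genes, 7 had a window in this table, Aqp4 being the gene without one.

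Library totals over mouse genes ran from 36488689 to 59165002 counts in the astrocyte libraries used and from 26139519 to 57893149 in the microglia libraries used. In mouse 459 (APPPS1 Cre-positive) the library labelled microglia held the astrocyte levels of all 8 genes and the library labelled astrocyte held the microglia levels, for example 3.04 CPM (counts per 1000000 mouse-gene counts) of Slc1a2 in the latter. Both were left out, which leaves 13 mice and 26 libraries. Human APOE, the targeted gene, was 507.4 to 925.6 CPM in the 6 Cre-positive astrocyte libraries and 1052 to 1864 CPM in the 7 Cre-negative ones. The 13 astrocyte markers summed to 19470 to 28070 CPM in the astrocyte sort, with 0 of them at 0, and to 121.4 to 180.9 CPM in the microglia sort. Oligodendrocyte markers varied in the astrocyte sort, from 2692 to 22690 CPM in sum over 8 genes, and were highest in mouse 759, an amyloid-free Cre-negative mouse that also had the lowest astrocyte marker sum. The vascular markers were lowest in the 2 amyloid-free Cre-positive libraries, with endothelial sums of 39.9 and 65.4 CPM against 129.8 to 690.3 in the other 11. In sorted bulk RNA, fewer cells of a type and less RNA per cell cannot be told apart.

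To set levels of different genes side by side, CPM were divided by exon length, with every annotated exon base of a gene counted once. This length was 13133 bases for Slc1a2 and 10257 for Gja1. The length of the transcripts present in these cells was not measured, so the order of the genes depends on this choice. By this measure Slc1a3 was the most abundant of the 8 in astrocytes at 910.9 ± 143.1 CPM per kb (mean ± SD, n = 13). Glul (563.1 ± 72.7), Gja1 (553.2 ± 77.9) and Gjb6 (515.4 ± 107.1 CPM per kb) followed closely together. Slc1a2 came next at 364.4 ± 32.9 CPM per kb. Slc6a11 (149.8 ± 51.4), Aqp4 (131.5 ± 19.2) and Kcnj10 (65.2 ± 9.88 CPM per kb) were the lowest. The steps from Slc1a3 to Glul, from Gjb6 to Slc1a2, from Slc1a2 to Slc6a11 and from Aqp4 to Kcnj10 held in 13 of 13 libraries. The neighbours Glul and Gja1 were in this order in 6 of 13 libraries, Gja1 and Gjb6 in 9, and Slc6a11 and Aqp4 in 8, so these neighbours do not differ beyond their spread. GLAST RNA thus exceeded GLT-1 RNA per kilobase in every astrocyte library used.

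The genes also differed in how evenly they were held between mice. Slc1a2 was the steadiest, with a coefficient of variation of 9.02% over the 13 astrocyte libraries and a highest level 1.31 times the lowest. Slc6a11 was the least steady, with 34.3% and 3.25 times. The other 6 lay between 12.9% (Glul) and 20.8% (Gjb6). The spread within groups followed the same ends, from an SD of 0.14 on the log2 scale for Slc1a2 to 0.44 for Slc6a11. Mouse 759 had the lowest level of 13 for 4 of the 8 genes and was among the 2 lowest for 6, while mouse 447 (APPPS1 Cre-negative) had the highest level for 3.

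**Figure D1:**
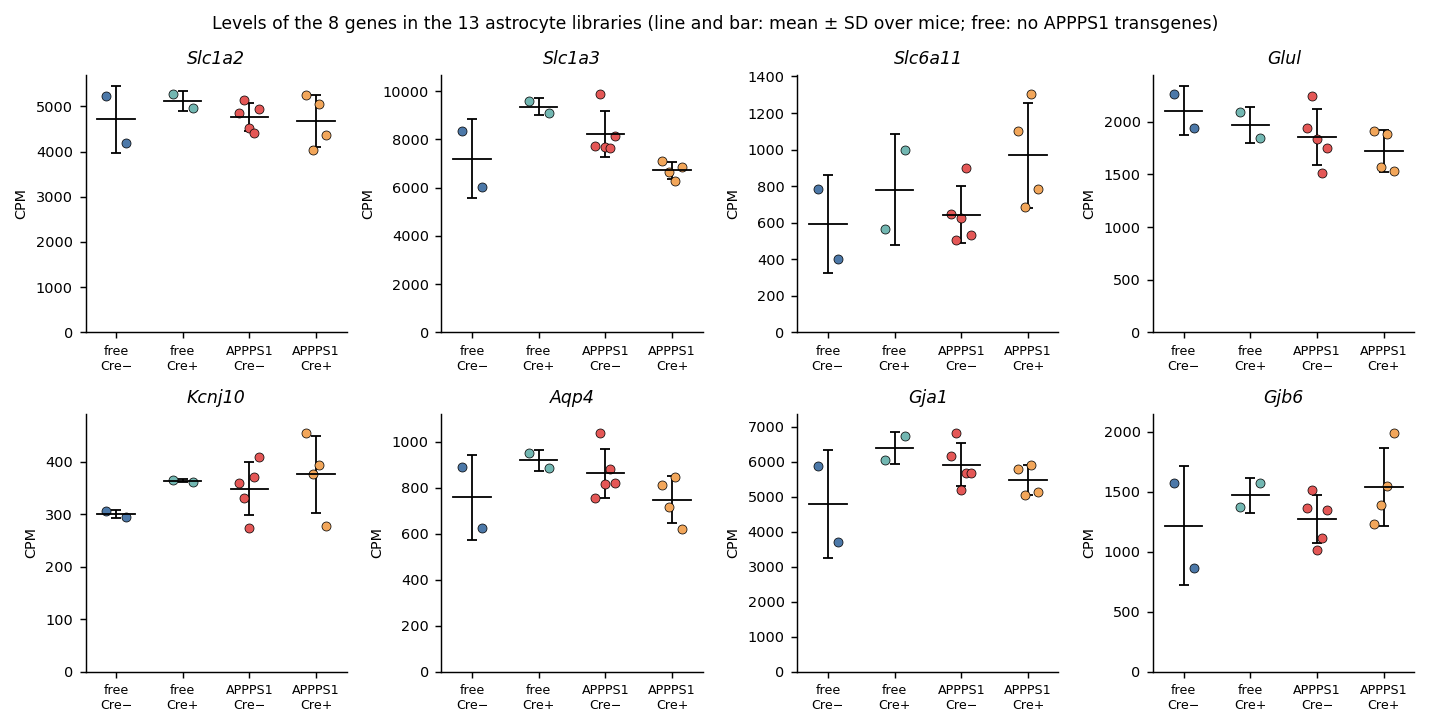
CPM of the 8 genes in the 13 astrocyte libraries by genotype, 1 point per mouse, with the mean and SD of each group on axes that start at 0. Slc1a3 in the 4 APPPS1 Cre-positive mice lies between 6284 and 7120 CPM, below the 5 APPPS1 Cre-negative mice, and Slc6a11 shows the widest scatter within groups.

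The amyloid question was asked first, by comparing APPPS1 with amyloid-free astrocytes. In none of the tests did an uptake, channel or junction gene pass: edgeR's quasi-likelihood test called 0 of the 8 with Cre averaged, 0 in Cre-negative and 0 in Cre-positive mice, at an adjusted p under 0.05, and DESeq2 also called 0 in each. Over all 20052 genes tested, 0.0%, 0.0% and 0.663% were called. At an unadjusted p under 0.05 the counts among the 8 were 0, 0 and 1, the 1 being Slc1a3, beside 7.03%, 4.06% and 11.7% of all genes. With Cre averaged, the fitted log2 changes ran from -0.20 (Glul) to 0.20 (Slc6a11), with a median of -0.02 beside 0.04 over all genes. The 95% intervals of these averages reached no further than -0.46 and 0.70, before any allowance for the number of genes.

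In the amyloid comparison of Cre-positive mice the groups overlapped for Slc1a2 and not for Slc1a3, and neither passed the test; a difference between the 2 genes was not tested there. Slc1a2 was 5280 and 4957 CPM in the amyloid-free mice and 5256, 4037, 5052 and 4369 CPM in the APPPS1 mice, which overlap. Slc1a3 was 9605 and 9103 CPM in the amyloid-free mice and 7120, 6641, 6284 and 6868 CPM in the APPPS1 mice, which do not overlap. The fitted log2 change of Slc1a3 was -0.51 ± 0.15 (SE; edgeR adjusted p = 0.167), and that of Slc1a2 was -0.16 ± 0.15 (adjusted p = 0.769). Aqp4 and Gja1 were also lower in all 4 APPPS1 mice than in both amyloid-free mice, with log2 changes of -0.33 ± 0.18 (adjusted p = 0.513) and -0.26 ± 0.18 (adjusted p = 0.625). Of all genes tested, 8.03% were lower without overlap in this comparison of 4 with 2 mice and 21.4% did not overlap in either direction, beside 3 of the 8 here. In Cre-negative mice 0 of the 8 separated the groups, where 8.61% of all genes did.

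The Cre question was whether these genes differed with the Cre that targets APOE4 in astrocytes, within APPPS1 and within amyloid-free mice. Human APOE RNA was lower with Cre and not absent, at 507.4 to 925.6 CPM against 1052 to 1864 CPM. A full loss was therefore not compared. Again 0 of the 8 were called by edgeR or by DESeq2 in either setting. DESeq2 called 55 of 20225 genes in APPPS1 and 978 of 16489 in amyloid-free mice, and edgeR called 0.00997% and 0.204% of all genes. At an unadjusted p under 0.05 the counts were 2 of 8 in APPPS1 mice and 0 of 8 in amyloid-free mice, beside 6.7% and 12.9% of all genes. The 2 were Slc1a3 and Slc6a11, both transporters, with estimates in opposite directions.

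Slc1a3 in APPPS1 mice was 7734, 9901, 7680, 7632 and 8137 CPM without Cre and 7120, 6641, 6284 and 6868 CPM with it. All 4 Cre-positive mice lay below all 5 Cre-negative mice, a separation in this direction that 0.593% of all genes showed (1.92% in either direction). The fitted log2 change was -0.34 ± 0.12 (edgeR adjusted p = 0.700), so it did not pass over all genes. In amyloid-free mice both Cre-positive levels, 9605 and 9103 CPM, lay above the Cre-negative levels of 8349 and 6034 CPM, and the estimate was 0.38 ± 0.18 (adjusted p = 0.397). The difference between the 2 Cre effects was -0.72 ± 0.22 on the log2 scale, with an interval from -1.19 to -0.25 and an adjusted p of 0.209.

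Slc6a11 in APPPS1 mice was 649.2, 504.7, 627.5, 901.5 and 533.5 CPM without Cre and 1099, 685.4, 1306 and 783.8 CPM with it. The groups overlap, since the Cre-negative mouse at 901.5 CPM lies above 2 Cre-positive mice. The estimate was 0.56 ± 0.26 (edgeR adjusted p = 0.743). In amyloid-free mice the levels were 782.1 and 402.2 CPM without Cre and 566.3 and 995.1 CPM with it, also overlapping.

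Glul, the enzyme that makes glutamine from the glutamate taken up, was 1516 to 2243 CPM in APPPS1 Cre-negative mice (median 1840) and 1537 to 1912 CPM in Cre-positive mice (median 1723). Its ranges overlap almost wholly, and the log2 change was -0.16 ± 0.14 (edgeR adjusted p = 0.911). Kcnj10, the potassium channel gene, was 274.3 to 409.4 CPM without Cre and 278.8 to 455.4 CPM with it, a change of 0.06 ± 0.15 (adjusted p = 0.980). Aqp4, the water channel gene, was 755.9 to 1038 CPM without Cre and 618.2 to 844.8 CPM with it, a change of -0.25 ± 0.14 (adjusted p = 0.798). The 2 groups overlap for each of these 3 genes.

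Gja1 in APPPS1 mice was 6156, 6819, 5188, 5688 and 5671 CPM without Cre and 5787, 5056, 5890 and 5132 CPM with it. In amyloid-free mice it was 5885 and 3709 CPM without Cre and 6059 and 6721 CPM with it. The first pair of groups overlaps and the second does not. The log2 changes were -0.16 ± 0.14 (edgeR adjusted p = 0.907) and 0.42 ± 0.20 (adjusted p = 0.415), and their difference was -0.58 ± 0.25 (adjusted p = 0.392). Gjb6 was 1018 to 1513 CPM without Cre and 1236 to 1992 CPM with it in APPPS1 mice, a change of 0.23 ± 0.19 (adjusted p = 0.904). The connexin 43 and connexin 30 estimates thus have opposite signs in APPPS1 mice, and neither passed.

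In amyloid-free mice 3 of the 8, namely Slc1a3, Kcnj10 and Gja1, were higher in both Cre-positive mice than in both Cre-negative mice. With 2 mice against 2 such a separation was frequent: 22.8% of all genes were higher without overlap and 48.1% did not overlap in either direction. The low Slc1a3 and Gja1 values on the Cre-negative side come from mouse 759, whose oligodendrocyte marker sum was 22690 CPM beside 7296 CPM in the other mouse of that group and 3912 and 6511 CPM in the Cre-positive mice. Without mouse 759 the Cre estimate in amyloid-free mice could be fitted only from 1 mouse against 2, assumed to vary like the other groups, and no member was called. The estimate of Slc1a3 was then 0.19 and that of Gja1 0.15, while without mouse 465, the other Cre-negative mouse, they were 0.62 and 0.77. The differences between the Cre effects were likewise -0.53 for Slc1a3 and -0.31 for Gja1 without mouse 759, and -0.96 and -0.93 without mouse 465. For the difference of the Cre effects, 0 of the 8 were called by edgeR or by DESeq2, and DESeq2 called 613 of 17042 genes. By edgeR, 2 of the 8 had an unadjusted p under 0.05 (Slc1a3 and Gja1), and 0.155% of all genes were called and 11.4% had such a p. The part of the oligodendrocyte signal in these values was not tested.

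**Figure D2:**
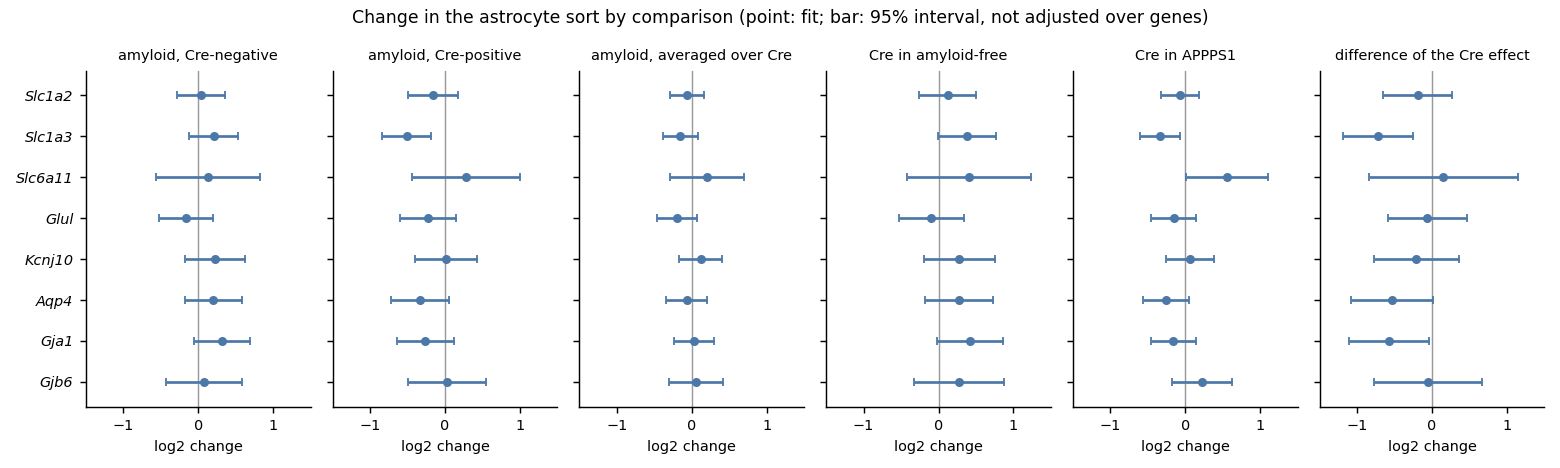
Fitted log2 change of the 8 genes in 6 comparisons of astrocyte libraries, with 95% intervals that are not adjusted over genes. Slc1a3 lies below 0 in the Cre-positive amyloid comparison (-0.51), the APPPS1 Cre comparison (-0.34) and the difference of the Cre effects (-0.72), and most other intervals cross 0.

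Ratios within a library compare 2 related genes free of library scaling. Their absolute values depend on the exon lengths used, while differences between groups do not. The log2 ratio of Slc1a2 to Slc1a3 per kilobase was -1.15 ± 0.19 (SD, n = 4) in APPPS1 Cre-positive and -1.40 ± 0.10 (n = 5) in APPPS1 Cre-negative astrocytes. The difference of 0.25 had an exact two-sided permutation p of 0.0317, and 0.127 after Benjamini-Hochberg adjustment over the 4 ratio tests. The ratio of Gja1 to Gjb6 was -0.10 ± 0.36 (n = 4) with Cre and 0.28 ± 0.12 (n = 5) without it, a difference of -0.38 (exact permutation p = 0.0635, adjusted 0.127). By amyloid, with Cre groups pooled, the differences were 0.07 for the glutamate transporters (exact permutation p = 0.576, adjusted 0.768) and -0.0047 for the connexins (p = 0.890, adjusted 0.890, exact). None of the 4 passed after adjustment, and the APPPS1 Cre-positive mice had the largest SD for both ratios.

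**Figure D3:**
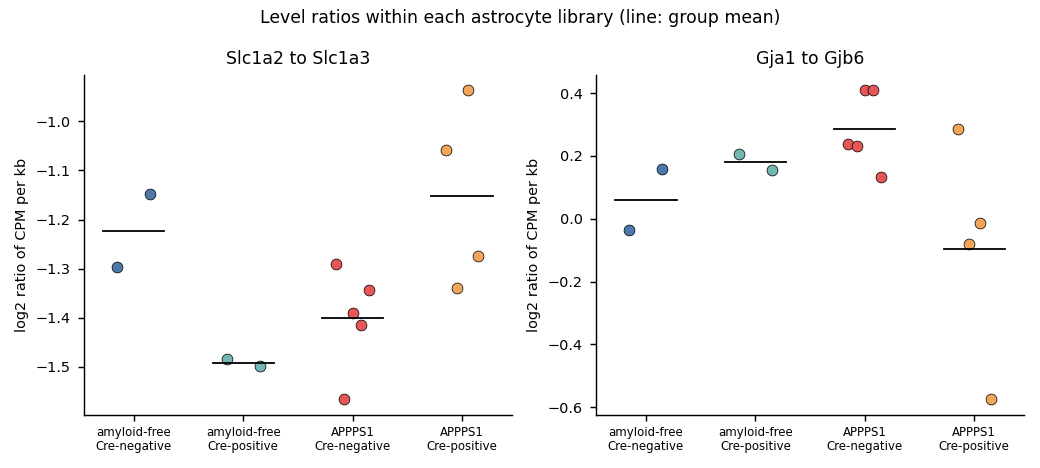
Log2 ratio of CPM per kb of Slc1a2 to Slc1a3 and of Gja1 to Gjb6 in each astrocyte library, with group means as lines. The APPPS1 Cre-positive mice average -1.15 for the first ratio and -0.10 for the second, and in both panels they overlap the APPPS1 Cre-negative mice.

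The members did not all vary together across mice. Over the 13 astrocyte libraries, which share scaling to the same totals, Pearson's r of log2 CPM was 0.79 for Aqp4 with Gja1 (rho = 0.74) and 0.79 for Slc1a3 with Aqp4 (rho = 0.79). It was 0.71 for Slc1a2 with Glul (rho = 0.66). Slc6a11 had values from r = -0.24 with Glul (rho = -0.31) to 0.43 with Kcnj10 (rho = 0.39) over its 7 pairs. Kcnj10 had values from r = -0.0759 with Glul (rho = -0.17) to that same 0.43. The 2 connexin genes had r = 0.57 (rho = 0.40). With group means removed, the Slc1a2 and Glul value was 0.81 that of Slc6a11 with Glul was 0.0288 and that of Slc6a11 with Gja1 was 0.56.

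Among 9667 other well-measured genes, those most like each member over the same 13 libraries differed between members, Nrcam being the exception among the genes named. Ppp1r3c was nearest to Slc1a2 (r = 0.91), Ltbp1 to Slc1a3 (r = 0.93) and Dio2, which activates thyroid hormone, to Glul (r = 0.94). Cdh20 was nearest to Slc6a11 (r = 0.87), Vps37b to Kcnj10 (r = 0.90) and Gabrg1, a GABA-A receptor subunit gene, to Aqp4 (r = 0.89). Nrcam, a cell adhesion gene, was nearest to Gja1 (r = 0.93) and stood second for Slc1a3 (r = 0.92). Cyp2d22 was nearest to Gjb6 (r = 0.88). These values are the highest of many searched and describe these libraries only.

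All 8 genes were higher in the astrocyte sort than in the microglia sort of the same mice. All 8 were called by edgeR in a fit with no term for the mouse, so the pairing is not used in its SE and p-values. Over the 21612 genes tested, 76.5% were called and 41.1% were higher in astrocytes. The log2 differences were 11.98 ± 0.44 for Slc6a11, 10.68 ± 0.54 for Gja1, 10.14 ± 0.48 for Gjb6, 9.78 ± 0.42 for Aqp4 and 9.51 ± 0.31 for Slc1a2 (SE; adjusted p from 3.29e-17 to 3.61e-14). They were smaller for Kcnj10 (5.94 ± 0.15, adjusted p = 1.13e-18), for Slc1a3 (4.72 ± 0.14, adjusted p = 8.85e-18) and for Glul (1.77 ± 0.14, adjusted p = 1.28e-10). The 3 genes with smaller differences are those with the highest shares in the microglia sort. The fitted difference of Slc6a11 is not read as a size, because all 4 APPPS1 Cre-positive microglia libraries held 0 counts of it.

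As a share of the same mouse's astrocyte level, the microglia sort held a median of 20.3% for Glul (11.5% to 34.7% over 13 mice), 2.51% for Slc1a3 (1.47% to 4.96%) and 1.13% for Kcnj10 (0.728% to 1.95%). The other 5 had medians from 0.0230% (Slc6a11 and Gja1) to 0.0456% (Slc1a2). The summed astrocyte markers had a median share of 0.630%, from 0.440% to 0.700%, and it is itself held up by single genes such as S1pr1 at 3.69%. Glul, at 200.2 to 672.7 CPM, was thus well above the share at which Slc1a2, Slc6a11, Aqp4, Gja1 and Gjb6 appeared in the same libraries. These 5 had median shares close to one another, and all below that of the marker sum.

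**Figure D4:**
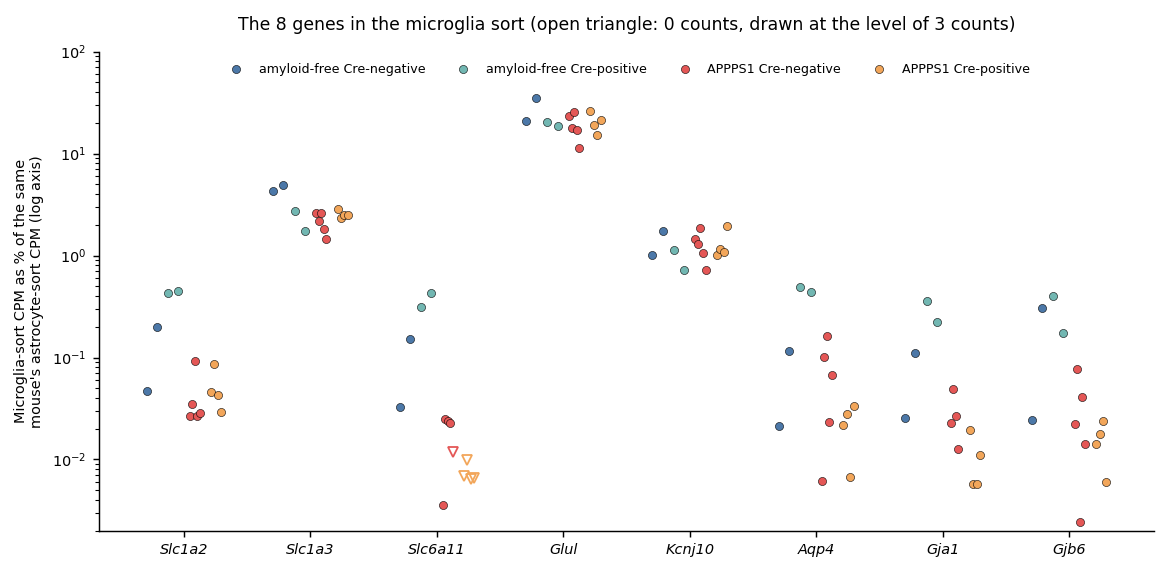
Level of each gene in the microglia sort as a percent of the level in the astrocyte sort of the same mouse, on a log axis, with 1 point per mouse and open triangles for libraries with 0 counts, drawn at the level of 3 counts. Glul, Slc1a3 and Kcnj10 lie near 20.3%, 2.51% and 1.13%, and the 2 amyloid-free Cre-positive mice stand above the rest for Slc1a2, Slc6a11, Aqp4 and Gja1.

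In the microglia sort Slc1a2, Gja1 and Gjb6 were lower in APPPS1 than in amyloid-free mice with Cre averaged. With Slc6a11, edgeR called 4 of the 8, where 9.58% of all 17593 genes were called and 3.52% were called lower. Slc1a2 fell by 2.22 on the log2 scale (SE 0.35, edgeR adjusted p = 0.00282), Gja1 by 2.92 (SE 0.60, adjusted p = 0.0115) and Gjb6 by 2.86 (SE 0.63, adjusted p = 0.0144). The call of Slc6a11 (adjusted p = 0.00322; 1.52e-05 with no filter) carries no weight as a test, because the gene passed the filter on low counts only through the amyloid-free libraries. All 9 APPPS1 libraries held 0 to 0.207 CPM of it, and its fitted change is not given as a size because 5 of them hold 0 counts. Aqp4 had a change of -1.97 ± 0.60 that did not pass (adjusted p = 0.0529). Slc1a3 (-0.46 ± 0.17, adjusted p = 0.0923), Glul (-0.27 ± 0.21, adjusted p = 0.443) and Kcnj10 (0.41 ± 0.21, adjusted p = 0.230) were not called either.

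These differences rest on few counts and on 2 mice. Slc1a2 was 22.6 and 22.1 CPM in the amyloid-free Cre-positive mice 22 and 26 and 1.18 to 8.31 CPM in the other 11 microglia libraries. Gja1 was 21.8 and 15.2 CPM in those 2 mice and 0 to 4.13 CPM in the other 11. Slc6a11 was 1.76 and 4.25 CPM there and 0 to 0.610 CPM elsewhere. Mouse 759 had the highest level of the other 11 for Slc1a2, Slc6a11, Gja1 and Gjb6. With mice 22 and 26 left out, amyloid can be compared only in Cre-negative mice, and 0 of the 8 were then called by edgeR. Estimates were -1.36 for Slc1a2 (edgeR adjusted p = 0.312), -1.06 for Gja1 (adjusted p = 0.715) and -1.70 for Gjb6 (adjusted p = 0.50). The result of Slc6a11 carries no weight as a test here either, because the gene passed the filter only through the amyloid-free libraries. Of all genes 0.428% were called in that fit. At an unadjusted p under 0.05 stood 2 of the 8, Slc1a2 and Slc1a3, and 12.1% of all genes. This fit was chosen after seeing the data. The fit of all 4 groups was also run with 1 mouse left out at a time. Estimates then ran from -2.49 to -1.64 for Slc1a2, -3.20 to -2.46 for Gja1 and -3.25 to -1.85 for Gjb6.

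Slc6a11 was at 0 counts in all 4 APPPS1 Cre-positive microglia libraries. A count of 0 over this group allows up to 0.0169 CPM (3 counts over the group), a limit that covers counting error only. The mean of 3.0 CPM in the amyloid-free Cre-positive libraries came from 58 and 111 counts in mice 22 and 26, and no fold is given. Microglia libraries of mice 22 and 26 differed in other markers as well. Their 10 microglia markers summed to 37120 and 19360 CPM, against 43320 to 47750 CPM in the other 11, and their blood leukocyte markers to 2186 and 3731 CPM against 123.1 to 3396 CPM. Their endothelial markers summed to 100.1 and 258.9 CPM against 27.9 to 66.0 CPM, and their pericyte and smooth muscle markers to 22.8 and 68.9 CPM against 1.75 to 15.2 CPM, both above all other 11. The sum of the 13 astrocyte markers, 180.9 and 125.6 CPM, was above the other 11 (121.4 to 168.5 CPM) in mouse 22 and within their range in mouse 26. Of the 13 astrocyte markers, 8 were higher in both of these mice than in all other 11, among them Aldoc at 33.2 to 43.9 CPM against 3.85 to 19.3 CPM. Aldh1l1, Slc39a12, F3, S1pr1 and Gfap were not. The share of all genes with such a separation was not computed, so the count is not read as particular to astrocyte markers. In the same amyloid contrast 4 of the 13 markers were called lower and 2 higher (S1pr1 and Gfap), where 6.06% of all genes were called higher, with a median log2 change of -1.30. The part of astrocyte RNA in the microglia sort in these results was not tested. Slc1a3, Glul and Kcnj10 did not follow mice 22 and 26: their levels there, 159.0 to 263.6, 347.5 to 425.2 and 2.64 to 4.12 CPM, lay within or below the range of the other 11.

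For Cre in the microglia sort of APPPS1 mice, edgeR and DESeq2 called 0 of the 8. Of all genes, DESeq2 called 6 of 27336 and edgeR 0.00568%. By edgeR, 2 of the 8 (Slc6a11 and Aqp4) and 3.5% of all genes had an unadjusted p under 0.05. That of Slc6a11 carries no weight, because the gene passed the filter only through the amyloid-free libraries, which are not compared here. Slc6a11 had 0 to 10 counts per library without Cre and 0 with it. Aqp4 was also near the floor, with 2 to 53 counts without Cre and 2 to 12 with it. Glul was 200.2 to 468.1 CPM without Cre and 286.8 to 497.8 CPM with it, a log2 change of 0.0038 ± 0.24 (edgeR adjusted p = 1.0). Slc1a3 was 119.5 to 215.7 CPM without Cre and 154.2 to 201.3 CPM with it, a change of -0.04 ± 0.19 (adjusted p = 1.0). Both genes thus overlap between the groups and had estimates near 0.

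The members were set beside 4 lists of other genes with the same tasks. Of 23 transmitter genes (transporters, enzymes and receptors), 18 were higher and 5 lower in astrocytes than in microglia, among them Slc1a4 (6.07 ± 0.18 on the log2 scale), a neutral amino acid transporter, and Abat (8.66 ± 0.33), which breaks down GABA. Of 18 potassium and ion genes 13 were higher and 5 lower, with Kcnj16, a partner of Kir4.1, at 6.0 ± 0.23. Of 16 endfoot and water genes 15 were higher and 1 (Trpv4) lower, with Mlc1 at 10.53 ± 0.42. Of 12 junction genes 11 were higher and 1 (Panx1) lower, with Cdh2 at 9.98 ± 0.36. The medians were 4.60, 5.90, 3.35 and 4.84 on the log2 scale, beside 0.18 over all genes. The counts are of edgeR calls. Of all 21612 genes tested, 76.5% were called and 41.1% were called higher in astrocytes.

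By amyloid and Cre in astrocytes, 1 of these 69 genes was called by edgeR: Slc38a1, a glutamine transporter of the transmitter list. It was 8.41 and 7.70 CPM in the amyloid-free Cre-positive mice, 45.1 and 28.2 CPM in the amyloid-free Cre-negative mice, 20.2 to 42.7 CPM in APPPS1 Cre-negative mice and 31.1 to 79.5 CPM in APPPS1 Cre-positive mice. The 2 amyloid-free Cre-positive mice lay below all other 11, and the share of all genes with such a separation was not computed. In the 3 comparisons that called Slc38a1, edgeR called 0.663%, 0.204% and 0.155% of all genes, in the order given next. The log2 change of Slc38a1 was 2.61 ± 0.38 by amyloid in Cre-positive mice (edgeR adjusted p = 0.0143). It was -2.18 ± 0.40 by Cre in amyloid-free mice (adjusted p = 0.0479) and 2.83 ± 0.47 for the difference of the Cre effects (adjusted p = 0.0364). Leaving out 1 mouse at a time kept these calls in 11, 3 and 4 of 13 fits, and none of the 3 was called without mouse 22 or without mouse 26. Adjusted p reached 0.226, 0.358 and 0.263 over the 13 fits. The same 2 libraries had the lowest endothelial sums, given above, and the lowest pericyte and smooth muscle sums, 216.5 and 259.4 CPM against 320.4 to 2723 CPM. Slc38a1 was also higher in the microglia sort than in astrocytes, with a log2 difference of -1.46 ± 0.14 for astrocytes against microglia (adjusted p = 3.97e-09). The part of other cells in this result was not tested.

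Other genes of the lists did not pass the test. Atp1b2, a sodium pump subunit that carries the ACSA-2 epitope used for the sort, had a log2 change of 0.69 ± 0.18 by Cre in amyloid-free mice (adjusted p = 0.116) and -0.85 ± 0.21 for the difference of the Cre effects (adjusted p = 0.128). Hepacam, an adhesion partner of Mlc1 and connexin 43, had -0.87 ± 0.23 by amyloid in Cre-positive mice (adjusted p = 0.110). Gja4, a connexin of vessels, had -3.19 ± 0.89 by Cre in amyloid-free mice (adjusted p = 0.137). For the difference of the Cre effects, 8 of 23 transmitter, 4 of 18 potassium, 4 of 16 endfoot and 6 of 12 junction genes had positive estimates, with medians of -0.21, -0.26, -0.35 and 0.78 beside 0.03 over all genes.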

How the data were processed

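The deposited table holds raw read counts per gene for 28 libraries from 14 mice, with mouse and human genes side by side; the authors used bcl2fastq, STAR and Subread featureCounts with the builds GRCm38 and GRCh38, per the submitters' processing notes. Strand handling, filters and annotation of these counts are not given in the sources used here. Of 95966 rows, 40481 mouse genes were kept. Human rows held 0.042% to 0.237% of counts.

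CPM are counts per 1000000 mouse-gene counts of the library. CPM per kb divides by exon length, with every annotated exon base of a gene counted once. edgeR 4.0.16 (R 4.3.3) gave the group changes (TMM scaling, filterByExpr, quasi-likelihood F test, 4 genotype groups per sort), with Benjamini-Hochberg adjustment over all genes and a call at an adjusted p under 0.05. The scripts were tested on simulated data. Both sorts came from the same mouse, so the mouse number pairs them; the blocked fit is an alternative. DESeq2 1.42.0, RLE scaling, no filter, only the compared groups, all 14 mice as labelled and leaving out each mouse were the others. The fit without mice 22 and 26 was added after seeing the data. Mouse 459 was left out because its 2 libraries go against their labels.

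The members, lists and marker genes were chosen with earlier results of these data known. Named genes are all 8 members, list genes of lowest p and, for likeness, the genes of highest Pearson r of log2(CPM + 0.5). Nothing in the labels gives a batch or sex, and p-values measure the spread between these mice. The intervals come from the same fits and carry the same spread, while floors cover counting error only. Some list genes are not reported here.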

Additional observations from a re-analysis of the deposited data

Results flagged for a closer look

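In groups of 4 or 5 libraries, 1 library standing far from the others was seen in 2 of 32 gene and group sets, and chance gives about 1 in 20. Slc1a3 in APPPS1 Cre-negative astrocytes was 9901 CPM in mouse 447, where the other 4 mice lay between 7632 and 8137 CPM. Slc1a2 in the microglia sort of APPPS1 Cre-negative mice was 4.18 CPM in mouse 469, where the other 4 lay between 1.18 and 1.80 CPM.

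The library labelled microglia of mouse 459, which enters no comparison, held all 8 genes far above the 13 other microglia libraries. It had 4537 CPM of Slc1a2, 8584 of Slc1a3, 648.8 of Slc6a11 and 1643 CPM of Glul. It had 421.5 CPM of Kcnj10, 900.8 of Aqp4, 6980 of Gja1 and 1920 CPM of Gjb6.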

How the results depend on the processing

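The astrocyte counts of 0 of 8 called and the sort difference of 8 of 8 kept their values under every alternative run for them. With mouse as a replicate block the sort differences remained called (Slc1a2 9.61, Slc1a3 4.74, Slc6a11 11.99, Glul 1.79, Kcnj10 5.96, Aqp4 9.88, Gja1 10.83, Gjb6 10.33). The Slc6a11 value is again not read as a size. The count of 4 called by amyloid in the microglia sort, Slc6a11 included, became 0 with all 14 mice as labelled, 0 without mice 22 and 26 (Aqp4 then 0.57), and 2 to 5 when 1 mouse was left out. Aqp4 there was called by DESeq2 (-1.97) and without a filter (-1.94). With all 14 mice as labelled, astrocyte changes by amyloid with Cre averaged reversed for Kcnj10 (-0.0559), Gja1 (-0.15) and Gjb6 (-0.13), by amyloid in Cre-positive mice for Slc6a11 (-0.0683), Kcnj10 (-0.33) and Gjb6 (-0.32), by Cre in APPPS1 mice for Kcnj10 (-0.25) and Gjb6 (-0.0940), and the difference of Cre effects for Slc6a11 (-0.18). In microglia the amyloid values became 1.88 (Slc1a2), 1.06 (Slc1a3), 0.0331 (Glul), 1.63 (Slc6a11), 2.87 (Aqp4), 2.47 (Gja1) and 2.30 (Gjb6), and the Cre values in APPPS1 mice 2.98 (Slc1a3), 9.83 (Slc6a11), 7.69 (Aqp4), 9.66 (Gja1) and 9.32 (Gjb6). The ratios became -0.45 by amyloid and -0.80 by Cre for Slc1a2 to Slc1a3, and 0.0815 by amyloid for Gja1 to Gjb6. In these fits the libraries of mouse 459 enter under labels that their marker levels go against.

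Leaving out 1 mouse at a time, uncalled estimates near 0 changed sign. In astrocytes by amyloid with Cre averaged the ranges were -0.18 to 0.0511 (Aqp4), -0.12 to 0.19 (Gja1) and -0.13 to 0.28 (Gjb6). In Cre-negative mice they were -0.0182 to 0.45 (Aqp4), -0.28 to 0.54 (Gjb6), -0.11 to 0.17 (Slc1a2) and -0.26 to 0.65 (Slc6a11), and in Cre-positive mice -0.14 to 0.14 (Gjb6), -0.13 to 0.11 (Kcnj10) and -0.0752 to 0.75 (Slc6a11). By Cre they were -0.0655 to 0.75 (Gjb6), -0.18 to 0.0111 (Glul), -0.0030 to 0.28 (Slc1a2) and -0.0698 to 0.95 (Slc6a11) in amyloid-free mice, and -0.0746 to 0.18 (Kcnj10) and -0.16 to 0.0128 (Slc1a2) in APPPS1 mice. For the difference of Cre effects they were -0.53 to 0.29 (Gjb6), -0.17 to 0.0281 (Glul) and -0.39 to 0.63 (Slc6a11). In APPPS1 microglia by Cre they were -0.23 to 0.12 (Glul), -0.00042 to 0.69 (Slc1a2) and -0.15 to 0.0426 (Slc1a3). The log2 ratio Gja1 to Gjb6, amyloid, averaged over Cre ran from -0.0566 to 0.0816. Slc38a1 lost its calls with all 14 mice as labelled (2.71, -2.17 and 2.94), and its Cre call in amyloid-free mice also with only those groups fitted (-2.19). A group reduced to 1 mouse was assumed to vary like the others. The causes were not tested.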
